A study of Mus musculus with 15 samples.

Results

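Fatty acid synthesis and elongation in mouse liver were followed through 10 genes: Fasn, Acly, Acaca, Scd1, Elovl3, Elovl5, Elovl6, Srebf1, Me1 and Thrsp. They were selected by gene name, and every probe set annotated to exactly 1 of these symbols was taken, which gave 23 probe sets of the 34945 on the array that carry exactly 1 symbol (10 of 18193 genes). Liver RNA of mice of C3H substrains, in 15 samples with 1 array each, was amplified, biotin-labelled and read on an Affymetrix 3′ expression array. The study asks how the intestinal microbiota and Tlr4, the receptor for bacterial lipopolysaccharide, bear on the promotion of liver cancer.

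The untreated group held 3 wild-type C3H/HeOuJ liver samples. The treated wild-type group held 4 C3H/HeOuJ livers from mice injected with diethylnitrosamine (DEN, a liver carcinogen) at 100 mg/kg when 12 weeks old and with carbon tetrachloride (CCl4, a liver toxin) at 0.50 ml/kg when 13 and 15 weeks old. The treated mutant group held 4 livers of C3H/HeJ mice, whose Tlr4 carries the P712H substitution that blocks signalling, after the same injections. The antibiotic group held 4 C3H/HeOuJ livers from mice that drank ampicillin, neomycin and metronidazole (1 g/l each) and vancomycin (500 mg/l) for 2 weeks from week 10, before the same injections. All mice were 15 weeks old, and treated livers were taken 48 h after the last CCl4 dose. All are labelled male except treated mutant replicate 1, whose sex is not given. Substrain and Tlr4 allele differed together, no untreated mutant and no uninjected antibiotic-treated mice were among the groups, and the labels name no batch. The labels report free access to chow; feeding state and hour of death were not given in the sources used here.

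The liver makes fatty acids from citrate that leaves the mitochondria. Acly splits citrate into cytosolic acetyl-CoA, Acaca carboxylates it to malonyl-CoA, and Fasn joins these units into palmitate with NADPH, part of which comes from malic enzyme (Me1). Elovl enzymes lengthen the chain and Scd1 places a double bond in it, while the transcription factor SREBP-1c, a product of Srebf1, and the nuclear protein Thrsp promote the programme after feeding, insulin and thyroid hormone.

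Levels are the authors' log2 GCRMA values, so a difference of 1 is a 2-fold change, and levels of different probe sets are not comparable with each other. A value under 4 was taken as close to background. Group levels are means ± SD over n = 3 untreated arrays or n = 4 arrays of another group, and differences are given ± SE. Rose, fell, higher and lower are used of differences with a limma p under 0.05 after Benjamini-Hochberg adjustment over 15541 probe sets that reached 4 on at least 3 arrays. That filter kept 19 of the 23 probe sets and all 10 genes. Where a gene had several probe sets, the brightest kept set by its mean over the 15 arrays, called its lead set, stands for it. The p-values measure the spread between arrays, whose number limits the precision, since the labels do not say outright that each array was a separate animal. The mean level of 9 hepatocyte markers was high in every group (12.55 to 13.19 per array), although 1 of them, Ass1, read 4.97 to 8.69. In RNA from whole liver, fewer cells of a type and less RNA per cell cannot be told apart.

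Most of the 10 genes were lower after DEN and CCl4. Fasn and Thrsp were lower again in the antibiotic group. Acly and Elovl6 were lower there without having passed the test with treatment. In treated against untreated wild type, 7 of the 10 genes fell and 0 rose, where 26.3% of all lead probe sets fell and 61.8% changed either way. The median difference of the 10 was -0.81, against 0.1 over all lead probe sets. In the treated mutant against treated wild type, 2 of 10 fell (Thrsp and Acly) and 0 rose, a share close to the 17.3% of all lead probe sets that fell (29.8% changed either way; median -0.11 against 0.02). In the antibiotic group against treated wild type, 4 of 10 fell (Fasn, Acly, Elovl6 and Thrsp) and 0 rose, where 8.42% of all lead probe sets fell (13% changed either way; median -0.58 against -0.03). The mutant and antibiotic comparisons use the same 4 treated wild-type arrays, so their values are given side by side. Arrays of the compared groups did not overlap for 5, 1 and 4 of the 10 genes in these 3 comparisons, beside 66.4%, 31.1% and 18.1% of all lead probe sets.

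**Figure D1:**
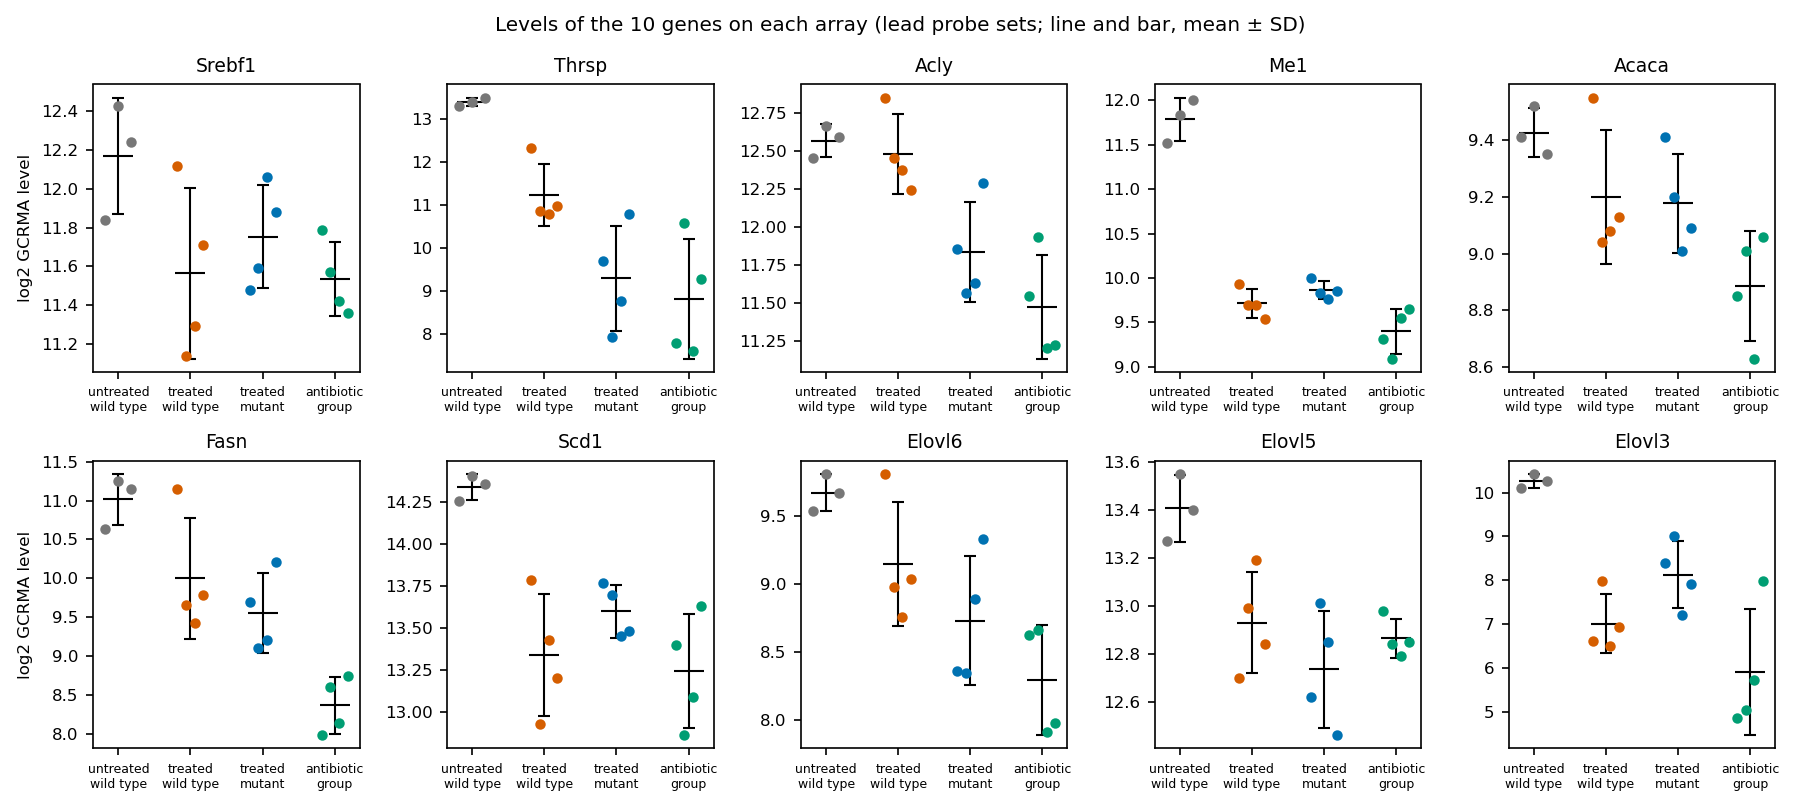
Log2 GCRMA level of the lead probe set of each of the 10 genes on each array, 1 panel per gene with its own axis range; points are arrays, long lines are group means and bars are ± SD (n = 3 untreated, n = 4 otherwise). Me1, Thrsp, Scd1, Elovl3 and Elovl5 have all untreated arrays above all treated ones, and Fasn is lowest in the antibiotic group (7.98 to 8.74).

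The direction of the whole array depended on scaling. With each array centred on its median, the median difference of all probe sets in treated against untreated wild type moved from 0.091 to -0.139, in the mutant against untreated from 0.121 to -0.037, and in the antibiotic group against untreated from 0.099 to -0.058. Of the changed probe sets in treated against untreated wild type, 57.1% were higher as deposited, 41.4% after centring and 44.5% after quantile normalization. In the mutant against treated wild type those shares were 43.8%, 55.8% and 53.4%, and in the antibiotic group against treated wild type 36.2%, 53.4% and 48.9%. Against untreated livers they were 60.1%, 45.3% and 48.1% for the mutant and 58.2%, 45.3% and 46.3% for the antibiotic group. None of the lead values of the 10 genes that passed the test changed sign under either scaling. Centring added Acaca (-0.45, adjusted p = 0.0171) and Elovl6 (-0.76, adjusted p = 0.0298) to the genes that fell in treated wild type.

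The 4 genes that fell in the antibiotic group are shown first by the 250 bases before their annotated start, 5′ to 3′ in the direction of the gene, from RefSeq on assembly GRCm38.p6, which is the C57BL/6J reference and not the C3H genome. Of the 10 genes, 8 had an upstream sequence in the table used (11 starts in all), Scd1 and Elovl3 being the others. Capitals mark matches on either strand to 4 motifs, the sterol regulatory element TCACNCCAC (present in 1.05% of 32851 mouse promoters of this length), the E-box CACGTG (6.02%), the NF-Y box CCAAT (33.8%) and the GC box GGGCGG (32.7%). The sequences lie at chr11:120824548-120824797, minus strand (Fasn), chr7:97417551-97417800, minus strand (Thrsp), chr11:100528001-100528250, minus strand (Acly) and chr3:129532136-129532385, plus strand (Elovl6).
Fasn: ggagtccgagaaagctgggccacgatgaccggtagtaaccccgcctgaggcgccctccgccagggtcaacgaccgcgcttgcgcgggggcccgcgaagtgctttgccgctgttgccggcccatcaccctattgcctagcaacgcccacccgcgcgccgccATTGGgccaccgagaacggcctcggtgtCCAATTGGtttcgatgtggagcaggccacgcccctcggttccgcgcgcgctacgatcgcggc
Thrsp: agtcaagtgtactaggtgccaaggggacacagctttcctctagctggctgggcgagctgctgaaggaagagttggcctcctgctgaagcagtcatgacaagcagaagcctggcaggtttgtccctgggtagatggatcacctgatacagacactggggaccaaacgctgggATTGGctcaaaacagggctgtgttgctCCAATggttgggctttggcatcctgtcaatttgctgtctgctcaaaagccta
Acly: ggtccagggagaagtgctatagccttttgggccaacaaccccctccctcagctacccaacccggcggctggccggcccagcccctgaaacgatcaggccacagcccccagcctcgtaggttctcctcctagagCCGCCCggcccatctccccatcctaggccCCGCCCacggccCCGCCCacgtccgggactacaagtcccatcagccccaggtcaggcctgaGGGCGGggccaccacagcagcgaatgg
Elovl6: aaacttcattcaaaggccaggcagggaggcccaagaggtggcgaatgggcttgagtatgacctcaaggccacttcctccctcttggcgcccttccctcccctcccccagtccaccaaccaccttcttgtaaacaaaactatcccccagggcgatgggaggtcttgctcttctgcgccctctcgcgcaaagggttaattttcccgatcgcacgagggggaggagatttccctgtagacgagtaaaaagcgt
The Fasn sequence held 3 NF-Y boxes, at 90 to 86 bases before the start on the opposite strand, 62 to 58 on the same strand and 59 to 55 on the opposite strand, the last 2 overlapping. Thrsp held 2 NF-Y boxes, at 79 to 75 on the opposite strand and 52 to 48 on the same strand. Acly held 4 GC boxes, at 117 to 112, 88 to 83 and 76 to 71 on the opposite strand and 27 to 22 on the same strand, and Elovl6 held 0 matches. Such boxes were not particular to these genes. Among genes that did not fall in the antibiotic group, Elovl5, Me1 and Srebf1 held NF-Y boxes before at least 1 start. Me1 and Srebf1 also held GC boxes, Elovl5 an E-box, and Acaca no match. The sterol regulatory element matched 0 of the 11 upstream sequences in these letters. A match or its absence describes the letters of this window and nothing about binding.

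Among the regulators, Srebf1 encodes the membrane-bound precursor of SREBP-1, which is cut free to activate lipogenic genes. Its probe set (1426690_a_at) read 11.84, 12.43 and 12.24 in untreated livers and 12.12, 11.14, 11.29 and 11.71 in treated wild type, given here and below in replicate order. It read 11.48, 11.59, 12.06 and 11.88 in the mutant and 11.79, 11.57, 11.42 and 11.36 in the antibiotic group. Treated wild-type replicate 1 overlapped the untreated arrays and the other 3 lay below them. Srebf1 fell by 0.61 ± 0.22 in treated wild type (1.52-fold, adjusted p = 0.0288). That call ended without untreated replicate 2 (adjusted p = 0.124) or 3 (0.0796), without treated replicate 2 (0.0898) or 3 (0.0756), after quantile normalization (0.0518) and with only both compared groups fitted (0.0587). Neither the mutant (0.19 ± 0.21, 95% interval -0.25 to 0.63, adjusted p = 0.525) nor the antibiotic group (-0.03 ± 0.21, interval -0.47 to 0.41, adjusted p = 0.942) passed the test against treated wild type.

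Thrsp, which encodes the thyroid hormone-responsive Spot 14 protein of lipogenic tissues, covered the widest range of the 10. Its lead set (1424737_at) read 13.29, 13.39 and 13.49 in untreated livers and 12.31, 10.86, 10.78 and 10.98 in treated wild type. The mutant arrays read 9.7, 7.94, 8.78 and 10.78 and the antibiotic arrays 7.79, 10.57, 7.62 and 9.29. Every treated array lay below every untreated one, the highest mutant array reached the lowest treated wild-type array without passing it, and the spread within the mutant (SD 1.22) and antibiotic (SD 1.39) groups was far above that of the untreated livers (SD 0.1). Thrsp fell by 2.16 ± 0.69 in treated wild type (4.45-fold, adjusted p = 0.0148), and from there it fell by 1.94 ± 0.64 in the mutant (3.83-fold, adjusted p = 0.0354). Its antibiotic level fell by 2.42 ± 0.64 from that of treated wild type (5.34-fold, adjusted p = 0.0251).

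The other Thrsp probe sets differed in how much they could show. Set 1422973_a_at fell by 2.61 ± 0.91 with treatment (adjusted p = 0.0229), and differed from treated wild type by -2.47 ± 0.84 in the mutant (adjusted p = 0.0408) and by -3.05 ± 0.84 in the antibiotic group (adjusted p = 0.0299). Set 1444166_at was at or near background in all treated groups (2.64 to 4.23, against 4.11 to 5.59 in untreated livers), and it passed the filter on low values through the untreated group. With 3 of its 4 treated wild-type arrays under 4, its fall with treatment is given as at least 1.87-fold, with values under 4 set to 4 (adjusted p = 0.000555 on the values as deposited), and it could show little below that. The mutant call of the Thrsp lead set rested on single arrays. It ended without treated wild-type replicates 1 (-1.58, adjusted p = 0.103), 2 (-2.06, adjusted p = 0.0527) or 4 (-2.02, adjusted p = 0.0585), without mutant replicates 1 (-2.07, adjusted p = 0.0535), 2 (-1.48, adjusted p = 0.114) or 3 (-1.76, adjusted p = 0.0773), and with no filter on low values (adjusted p = 0.0514). The antibiotic call ended without treated wild-type replicate 1 (-2.06, adjusted p = 0.0702) or 4 (0.0503) and without antibiotic replicate 1 (0.0765) or 3 (0.0717).

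Acly, which supplies the acetyl-CoA for both fatty acids and sterols, showed no detectable effect of DEN and CCl4 in wild type. Its lead set (1439459_x_at, whose suffix marks probes that may also match other transcripts) read 12.45, 12.66 and 12.59 in untreated and 12.85, 12.45, 12.37 and 12.24 in treated wild-type livers. The mutant arrays read 11.85, 11.56, 11.63 and 12.29 and the antibiotic arrays 11.54, 11.93, 11.2 and 11.22. Untreated and treated wild type overlapped, mutant replicate 4 reached into the treated wild-type range, and all antibiotic arrays lay below it. The treatment difference was -0.09 ± 0.21 (95% interval -0.53 to 0.35, adjusted p = 0.728).

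Acly fell by 0.64 ± 0.19 in the mutant (1.56-fold, adjusted p = 0.0222), and its antibiotic difference was -1 ± 0.19 (2.01-fold, adjusted p = 0.00555). In the probe sets 1451666_at and 1425326_at the mutant and antibiotic arrays overlapped each other and all lay below those of treated wild type, with differences for the mutant of -0.84 ± 0.2 (adjusted p = 0.00683) and -1.81 ± 0.41 (adjusted p = 0.00443) and differences for the antibiotic group of -0.94 ± 0.2 (adjusted p = 0.00973) and -1.62 ± 0.41 (adjusted p = 0.0199). The Acly call of the lead set in the mutant ended without treated wild-type replicate 1 (-0.52, adjusted p = 0.0692) and without mutant replicate 2 (-0.55, adjusted p = 0.0706) or 3 (-0.57, adjusted p = 0.0546). The antibiotic call stood without treated wild-type replicate 1 (-0.88, adjusted p = 0.0165). Of 3 further Acly sets under the filter, 1438389_x_at and 1446315_at stayed under 4 on all arrays (1.93 to 3.45), and 1439445_x_at read 3.89 to 4.2 in untreated and 2.15 to 2.96 in all other livers.

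Me1, the cytosolic malic enzyme that makes NADPH, had the narrowest spread beside its change. Its lead set (1430307_a_at) read 11.52, 11.84 and 12 in untreated livers and 9.93, 9.69, 9.69 and 9.54 in treated wild type. It read 10, 9.83, 9.76 and 9.85 in the mutant and 9.31, 9.09, 9.55 and 9.65 in the antibiotic group. All 12 treated livers, whatever their genotype or antibiotics, lay more than 1 log2 unit below all 3 untreated ones. Me1 fell by 2.08 ± 0.15 in treated wild type (4.22-fold, adjusted p = 4.45e-08), and 1416632_at fell by 1.89 ± 0.15 (adjusted p = 1.16e-07). Against treated wild type the lead set differed by 0.15 ± 0.14 in the mutant (adjusted p = 0.475) and by -0.31 ± 0.14 in the antibiotic group (adjusted p = 0.169). The probe sets differed on the mutant, since 1416632_at read 8.48 to 8.69 there and 8.04 to 8.27 in treated wild type and rose by 0.42 ± 0.14 (adjusted p = 0.0391). Me1 was thus lower with treatment in each set, and its mutant difference was called by 1 of 2 sets.

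Acaca encodes acetyl-CoA carboxylase, which makes malonyl-CoA in the committed step. Its lead set (1434185_at) read 9.41, 9.52 and 9.35 in untreated, 9.55, 9.04, 9.08 and 9.13 in treated wild-type, 9.41, 9.2, 9.01 and 9.09 in mutant and 8.85, 9.01, 8.63 and 9.06 in antibiotic-group livers. The range over all 15 arrays was under 1 log2 unit (8.63 to 9.55). The other Acaca set (1427595_at) stayed at background (1.49 to 2.08). Acaca passed none of the first 3 comparisons (-0.22 ± 0.15, adjusted p = 0.207 for treatment; -0.03 ± 0.14, adjusted p = 0.913 for the mutant; -0.31 ± 0.14, adjusted p = 0.148 for the antibiotic group). Of all 6 comparisons, the antibiotic group against untreated livers called it (-0.54 ± 0.15, adjusted p = 0.00652), with all 4 arrays below all 3. Its treatment difference was called with array weights (-0.3, adjusted p = 0.0273), with arrays centred (-0.45, adjusted p = 0.0171) and without treated wild-type replicate 1 (-0.34, adjusted p = 0.0468).

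Fasn, the multifunctional synthase itself, was lower with treatment and lowest in the antibiotic group. Its probe set (1423828_at) read 10.64, 11.25 and 11.15 in untreated livers and 11.15, 9.65, 9.43 and 9.78 in treated wild type. The mutant arrays read 9.7, 9.1, 9.2 and 10.21 and the antibiotic arrays 7.98, 8.6, 8.14 and 8.74. Treated wild-type replicate 1 sat at the untreated level while the other 3 lay below all untreated arrays, the mutant overlapped treated wild type, and the antibiotic arrays were below every other array. Fasn fell by 1.02 ± 0.37 with treatment (2.02-fold, adjusted p = 0.027), and the difference was -1.4 without replicate 1 (adjusted p = 0.000849). With that array kept, the call ended without untreated replicate 2 (adjusted p = 0.0909) or 3 (0.0775) or treated replicate 2 (0.0696), 3 (0.0763) or 4 (0.0615).

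Against treated wild type, Fasn in the mutant differed by -0.45 ± 0.34 (95% interval -1.18 to 0.28, adjusted p = 0.352), and by -0.07 without treated replicate 1 (adjusted p = 0.881). Fasn fell by 1.63 ± 0.34 in the antibiotic group (3.11-fold, adjusted p = 0.0082), and the difference was -1.25 without that array (adjusted p = 0.0131). The antibiotic group was also lower than the mutant in Fasn (-1.18 ± 0.34, 2.27-fold, adjusted p = 0.0388). Their arrays did not overlap, as for 1477 of all 9482 lead probe sets. That call against the mutant ended without mutant replicate 4 (adjusted p = 0.105), antibiotic replicate 3 (0.0979) and some other single arrays, and with no filter (0.0586). From highest to lowest the order of Fasn was untreated, treated wild type, treated mutant and antibiotic group, of which the middle neighbours did not differ beyond their spread.

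Scd1, the stearoyl-CoA desaturase that makes oleate, was lower in every treated group than in untreated wild-type livers. Its lead set (1415964_at) read 14.26, 14.41 and 14.36 in untreated and 13.79, 12.93, 13.43 and 13.2 in treated wild-type livers. It read 13.77, 13.7, 13.45 and 13.48 in the mutant and 13.4, 12.86, 13.09 and 13.63 in the antibiotic group. The 12 treated arrays overlapped each other and lay below all untreated ones. Scd1 fell by 1.01 ± 0.2 in treated wild type (2.01-fold, adjusted p = 0.000537), and neither the mutant (0.26 ± 0.18, adjusted p = 0.312) nor the antibiotic group (-0.09 ± 0.18, adjusted p = 0.792) differed from it by the test. The dimmer set 1415965_at fell by 0.89 ± 0.21 with treatment (adjusted p = 0.00179) and, unlike the lead set, was lower again in the antibiotic group (9.39 to 9.71 against 9.83 to 10.9, -0.68 ± 0.19, adjusted p = 0.0317), so the probe sets of Scd1 disagreed on the antibiotic difference.

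Of the elongases, Elovl6 extends palmitate to stearate. Its lead set (1417404_at) read 9.54, 9.81 and 9.67 in untreated and 9.81, 8.98, 8.76 and 9.04 in treated wild-type livers. The mutant arrays read 8.36, 8.35, 8.89 and 9.33 and the antibiotic arrays 8.63, 8.66, 7.91 and 7.98. As for Fasn, treated wild-type replicate 1 was at the untreated level and the other 3 were below it. The treatment difference of Elovl6 was -0.53 ± 0.28 (adjusted p = 0.12), -0.75 without replicate 1 (adjusted p = 0.0258) and -0.65 with array weights (adjusted p = 0.0128). Elovl6 fell by 0.85 ± 0.26 in the antibiotic group (1.81-fold, adjusted p = 0.0457), and 1417403_at fell by 1.31 ± 0.33 (2.49-fold, adjusted p = 0.0191).

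The Elovl6 lead call in the antibiotic group was near its threshold. It ended with arrays centred (-0.78, adjusted p = 0.0614), with no filter (0.066), with the mean of the probe sets (0.0951), with only both groups fitted (0.0744) and without treated wild-type replicate 1 (-0.63, adjusted p = 0.119), 2 (0.07) or 4 (0.0812) or antibiotic replicate 1 (0.0525), 3 (0.117) or 4 (0.119). The mutant difference was -0.42 ± 0.26 (adjusted p = 0.252) and -0.8 ± 0.33 in 1417403_at (adjusted p = 0.0852). The dim set 1442656_at read 6.12, 7.79 and 8.31 in untreated livers and 4.32 to 6.26 in the treated groups, and fell by 1.91 ± 0.49 with treatment (adjusted p = 0.00366), where 1417403_at differed by -0.27 ± 0.36 (adjusted p = 0.532). In the antibiotic group against treated wild type 1442656_at differed by -0.13 ± 0.45 (adjusted p = 0.883), so the 3 Elovl6 sets did not give the same call in either comparison.

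Elovl5 lengthens polyunsaturated chains. Its lead set (1415840_at) read 13.27, 13.55 and 13.4 in untreated livers and 12.7, 12.99, 13.19 and 12.84 in treated wild type. It read 12.62, 13.01, 12.85 and 12.46 in the mutant and 12.98, 12.84, 12.79 and 12.85 in the antibiotic group. All treated arrays lay below the untreated ones and the 3 treated groups overlapped. Elovl5 fell by 0.48 ± 0.15 with treatment (1.39-fold, adjusted p = 0.0113; -0.41 and adjusted p = 0.0555 without untreated replicate 2), and 1437211_x_at fell by 0.58 ± 0.16 (adjusted p = 0.00722). Against treated wild type it differed by -0.19 ± 0.14 in the mutant (adjusted p = 0.308) and -0.07 ± 0.14 in the antibiotic group (adjusted p = 0.796).

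Elovl3 lengthens saturated and monounsaturated very long chains and is known as a male-biased transcript of mouse liver. Its probe set (1420722_at) read 10.11, 10.42 and 10.27 in untreated livers and 6.61, 7.99, 6.51 and 6.94 in treated wild type. The mutant arrays read 8.39, 9, 7.2 and 7.91 and the antibiotic arrays 4.86, 5.05, 5.72 and 7.99. No treated array came within a log2 unit of an untreated one, the mutant lay highest of the treated groups, and antibiotic replicate 4 stood well above the other 3 of its group. Elovl3 fell by 3.25 ± 0.62 in treated wild type (9.54-fold, adjusted p = 0.000378). Against treated wild type it differed by 1.11 ± 0.57 in the mutant (95% interval -0.11 to 2.33, adjusted p = 0.164) and by -1.11 ± 0.57 in the antibiotic group (interval -2.33 to 0.11, adjusted p = 0.224; -1.8 and adjusted p = 0.016 without antibiotic replicate 4). The antibiotic group was lower than the mutant in Elovl3 (-2.22 ± 0.57, 4.66-fold, adjusted p = 0.0239), a call that ended with only both groups fitted (0.0834) and on leaving out any of several single arrays.

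**Figure D2:**
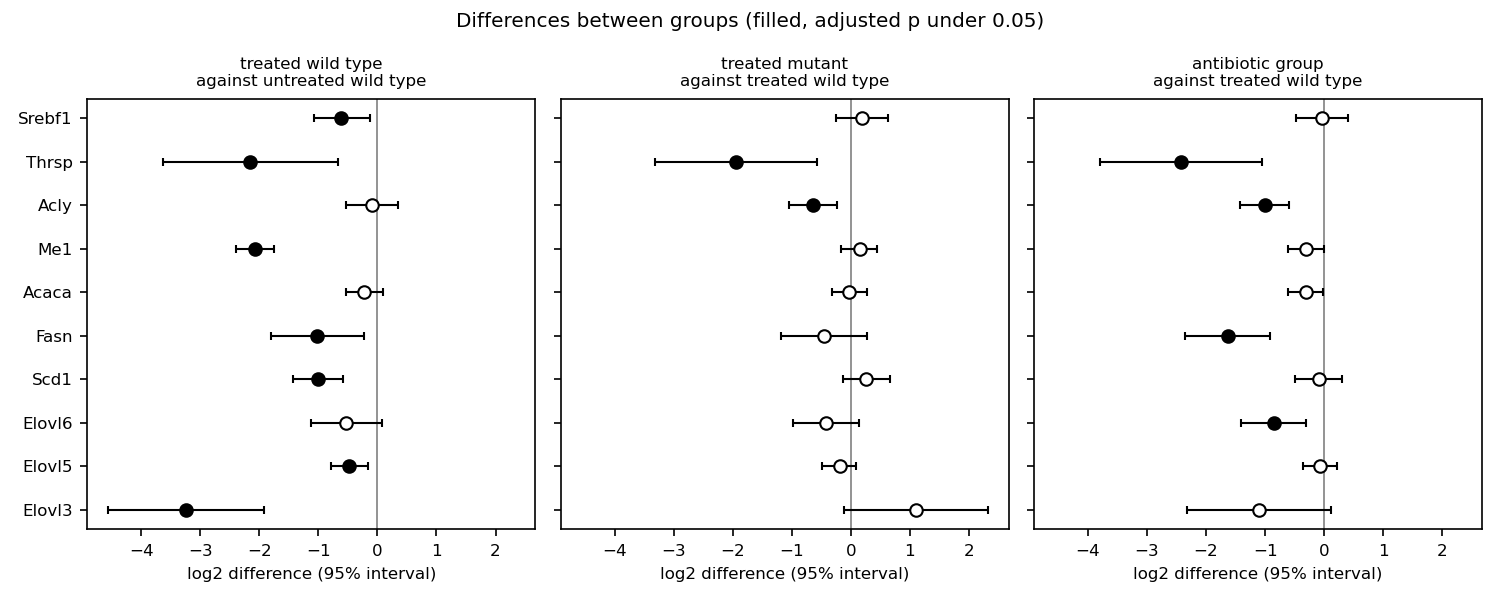
Log2 difference of the lead probe set of each gene in 3 comparisons (panels), with 95% intervals from limma; filled points have an adjusted p under 0.05. With treatment, 7 genes lie left of 0 as filled points (Elovl3 at -3.25, Thrsp at -2.16, Me1 at -2.08), and in the antibiotic group Thrsp (-2.42), Fasn (-1.63), Acly (-1) and Elovl6 (-0.85) do.

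Measured from untreated livers, the antibiotic group had all 10 genes lower and the mutant 8. In the mutant against untreated livers, Thrsp fell 17-fold (-4.09 ± 0.69, adjusted p = 0.000219) and Elovl3 4.41-fold (-2.14 ± 0.62, adjusted p = 0.00984), while Srebf1 (-0.42 ± 0.22, adjusted p = 0.132) and Acaca (-0.25 ± 0.15, adjusted p = 0.174) were not called. Of all lead probe sets 21.1% fell there and 53.2% changed either way, and the median of the 10 was -0.84 against 0.13. With arrays centred, Srebf1 (-0.57, adjusted p = 0.0406) and Acaca (-0.41, adjusted p = 0.0361) were called too. Thrsp in the antibiotic group fell 23.8-fold (-4.57 ± 0.69, adjusted p = 6.81e-05), Elovl3 20.6-fold (-4.36 ± 0.62, adjusted p = 3.73e-05) and Fasn 6.28-fold (-2.65 ± 0.37, adjusted p = 3.04e-05), where 24.1% of all lead probe sets fell and 58.1% changed (median -1.24 against 0.11). Srebf1 was also lower in the antibiotic group (-0.64 ± 0.22, adjusted p = 0.0244). That call ended after quantile normalization (0.0503) and without untreated replicate 2 (0.11) or 3 (0.0706) or antibiotic replicate 3 (0.0557) or 4 (0.0561). These comparisons share the untreated arrays with each other and with that of treated wild type.

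The antibiotic group and the mutant, both treated, were also compared directly, which uses none of the treated wild-type arrays. Fasn and Elovl3 were lower in the antibiotic group, 2 of 10 genes where 4.93% of all lead probe sets fell and 11.3% changed (median -0.4 against -0.02). Me1 differed by -0.46 ± 0.14 in its lead set (adjusted p = 0.0539) and fell by 0.5 ± 0.14 in 1416632_at (adjusted p = 0.0351), and neither set overlapped between the groups. Arrays of these groups did not overlap for 2 of the 10 genes and for 1477 of all 9482 lead probe sets. The same held for 2260 of all 15541 kept probe sets. Thrsp (-0.48 ± 0.64, interval -1.85 to 0.89, adjusted p = 0.682), Acly (-0.36 ± 0.19, interval -0.77 to 0.05, adjusted p = 0.247) and Elovl6 (-0.43 ± 0.26, interval -0.99 to 0.12, adjusted p = 0.306) were not separated, with intervals that leave room for sizeable differences.

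In the untreated and treated wild-type groups, many of the 10 genes were high or low on the same arrays. Treated wild-type replicate 1 was the highest array of its group for 8 of the 10 genes, with a median deviation of 0.41 above the group mean, and the lowest for 1. Untreated replicate 1 was lowest for 9 of 10 and replicate 2 highest for 8. The other groups had no such array: mutant replicates 1 to 4 were highest for 3, 2, 1 and 4 genes and lowest for 1, 4, 4 and 1, and antibiotic replicates 1 to 4 were highest for 2, 3, 0 and 5 and lowest for 2, 2, 5 and 1. Without treated wild-type replicate 1, 9 of the 10 genes fell with treatment in place of 7, 0 fell in the mutant in place of 2, and 2 (Fasn and Acly) fell in the antibiotic group in place of 4. Without untreated replicate 2, 4 fell with treatment. Calls over the whole array moved in that fit too, from 9310 to 8301 probe sets changed with treatment. The share of all lead probe sets that fell was not computed for fits without an array. These shifts in the counts therefore cannot be read as particular to the 10 genes. Untreated replicate 1 also had the lowest median of all kept probe sets in its group (7.09 against 7.12 and 7.13). Treated wild-type replicate 1 had the highest of its own (7.36 against 7.33 to 7.34). Among untreated livers every macrophage marker, such as Vsig4 (6.01 against 7.83 and 8.55), was lowest on replicate 1, so that array was not low for the lipogenic genes alone. The share of all lead probe sets with such ranks was not computed. The labels single out none of these arrays.

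**Figure D3:**
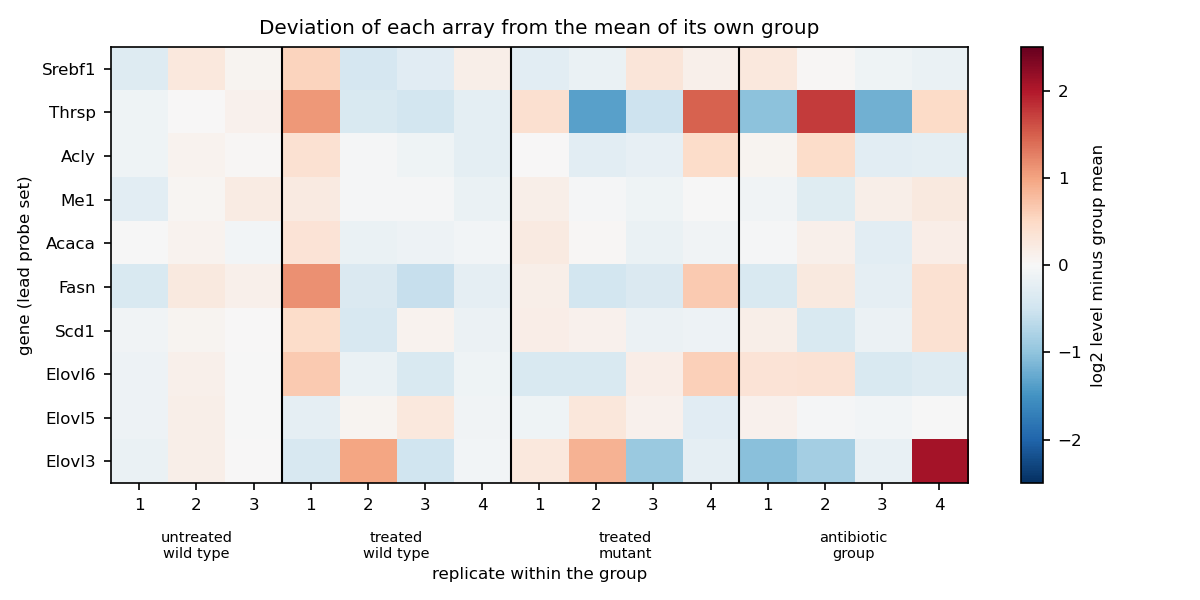
Deviation of each array (columns, by group and replicate) from the mean of its own group, in log2 units, for the lead probe set of each of the 10 genes (rows); red is above the group mean and blue below. Treated wild-type replicate 1 is red for 8 of the 10 genes, and Thrsp and Elovl3 deviate the most in the mutant and antibiotic groups.

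Other enzymes of the same pathway were called in both directions. Of 18 kept genes of fatty acid synthesis, elongation and desaturation outside the 10, 6 rose and 6 fell with treatment (median -0.03 against 0.1 over all lead probe sets), a share near the 61.8% of all lead probe sets that changed. Scd2, a desaturase isoform scarce in adult liver, rose by 3.48 ± 0.25 from 4.17 to 7.65 (adjusted p = 3.42e-08). The elongase Elovl7 and Hacd4, a dehydratase of the elongation cycle, were under 4 on all 3 untreated arrays and passed the filter through other arrays. Elovl7 was at least 2.51-fold higher with treatment (mean level 5.33, adjusted p = 8.69e-07) and Hacd4 at least 2.37-fold (mean level 5.24, adjusted p = 3.4e-05), with values under 4 set to 4. Among the genes that fell, as many of the 10 did, were Acacb, the other acetyl-CoA carboxylase, from 6.52 to 4.54 (-1.98 ± 0.27, adjusted p = 1.78e-05, 1 treated array under 4), and Acss2, which makes acetyl-CoA from acetate, from 11.81 to 10.51 (-1.31 ± 0.2, adjusted p = 4.57e-05). Scd1 and Scd2 went opposite ways with treatment.

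In the mutant against treated wild type, 1 of these 18 rose and 3 fell (median 0.03 against 0.02; 29.8% of all lead probe sets changed). Hacd4, under 4 on all 4 mutant arrays, was at least 2.37-fold lower (adjusted p = 0.000159), Scd2 fell by 1.97 ± 0.23 (adjusted p = 3.18e-05), and Elovl7 rose by 1.01 ± 0.23 (adjusted p = 0.00509). In the antibiotic group 1 rose and 4 fell (median -0.17 against -0.03; 13% of all lead probe sets changed). Those that fell included Scd2 (-1.62 ± 0.23, adjusted p = 0.00124), Hacd4 (-1.07 ± 0.29, adjusted p = 0.0263, 2 antibiotic arrays under 4) and Mid1ip1, a Thrsp relative that promotes acetyl-CoA carboxylase assembly (-0.89 ± 0.21, adjusted p = 0.0149). Mid1ip1 read 8.65 to 8.81 in the antibiotic group, 9.16 to 10.22 in treated wild type and 9.31 to 9.95 in the mutant, so its antibiotic arrays stood apart from both.

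Suppliers of carbon and NADPH were 6 kept genes, beside which 61.8% (treatment), 29.8% (mutant) and 13% (antibiotic group) of all lead probe sets were called. With treatment 1 of the 6 rose and 3 fell (median -0.36). Pklr, the liver pyruvate kinase, fell by 2.85 ± 0.19 (adjusted p = 2.16e-08) and Khk, which phosphorylates fructose, also fell (-1.91 ± 0.23, adjusted p = 5.22e-06), while Pgd of the pentose phosphate pathway rose by 0.77 ± 0.16 (adjusted p = 0.000646). Pklr was the gene called in the mutant (1 rose, 0 fell; 1.28 ± 0.18, adjusted p = 0.000143) and in the antibiotic group (1 rose, 0 fell; 0.8 ± 0.18, adjusted p = 0.0118). Its direction there was opposite to that of Acly and Thrsp, which fell in both.

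Regulators of lipogenesis and of SREBP processing numbered 21 kept genes. They were read beside the 61.8% (treatment), 29.8% (mutant) and 13% (antibiotic group) of all lead probe sets called in either direction. With treatment 1 rose and 6 fell (median -0.06), the most Ppargc1b, a coactivator of SREBP-1 (-2.24 ± 0.23, adjusted p = 1.38e-06), and the insulin receptor Insr (-1.36 ± 0.17, adjusted p = 7.94e-06), while Nfya, an NF-Y subunit under 4 on all untreated arrays, was at least 1.81-fold higher (adjusted p = 1.98e-05). In the mutant 3 rose and 0 fell (median 0.13), among them Insr (0.68 ± 0.16, adjusted p = 0.00489). The antibiotic group had 3 higher and 2 lower (median 0.04). Insig1, which holds SREBP precursors in the endoplasmic reticulum and is itself an SREBP target, read 10.56, 11.1, 10.52 and 10.75 there and 12.43, 12.22, 12.23 and 12.18 in treated wild type, and fell by 1.53 ± 0.2 (adjusted p = 0.000663). Nfyb, another NF-Y subunit, fell by 0.74 ± 0.14 (adjusted p = 0.0051), and Irs2, an insulin signalling adaptor, rose by 1.05 ± 0.25 (adjusted p = 0.0163). Insig1 (-1.09 ± 0.2, adjusted p = 0.00317) was also lower in the antibiotic group than in the mutant.

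Enzymes that build glycerolipids were called in both directions in each of the first 3 comparisons. Of 12 kept genes, 1 rose and 3 fell with treatment (median -0.17; 61.8% of all lead probe sets changed), including Dgat2, which completes triglyceride synthesis (-0.87 ± 0.09, adjusted p = 2.3e-06). In the mutant 1 rose and 1 fell (median -0.05; 29.8% of all changed), Dgat1 rising by 0.82 ± 0.21 (adjusted p = 0.00847). Antibiotic-group livers had 2 higher and 2 lower (median 0.18; 13% of all changed), the most Acsl3, an acyl-CoA synthetase of lipid droplets (-1.1 ± 0.2, adjusted p = 0.00413). Dgat1 rose there as well (0.73 ± 0.21, adjusted p = 0.0317).

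Genes that respond to fasting were read beside the lipogenic ones. Of 7 kept, 2 rose and 1 fell with treatment (median 0.35), Igfbp1, an insulin-repressed binding protein, by a log2 difference of 3.51 ± 0.22 from 9.16 to 12.66 (adjusted p = 1.13e-08) and Pdk4, which restrains pyruvate oxidation and was under 4 on all untreated arrays, by at least 2.42-fold (adjusted p = 0.00399), while Pck1 of gluconeogenesis fell by 0.62 ± 0.15 (adjusted p = 0.00261). In the mutant 0 rose and 0 fell (median 0.23). Of all lead probe sets, 61.8% changed with treatment and 29.8% in the mutant. Against treated wild type, the antibiotic group had 4 higher and 0 lower (median 0.59), where 434 of all 9482 lead probe sets were higher and 798 lower.

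Cyp4a14, a PPARα target that hydroxylates fatty acids, read 11.02, 8.81, 10.15 and 10.85 in the antibiotic group and 2.38, 5.89, 3.97 and 2.78 in treated wild type. Since 3 of those 4 arrays were under 4, Cyp4a14 was at least 53.2-fold higher, with values under 4 set to 4 (adjusted p = 0.000373 on the values as deposited). G6pc, which releases glucose, read 11.29, 12.09, 10.74 and 11.79 against 9.16, 7.49, 7.62 and 9.51 (3.03 ± 0.59, adjusted p = 0.00605). Angptl4, an inhibitor of lipoprotein lipase, rose by 1.05 ± 0.26 (adjusted p = 0.0172). These genes did not overlap between the 2 groups, and they were highest where Fasn and Mid1ip1 were lowest. Cyp4a14 (4.44 ± 0.73, adjusted p = 0.00195) and G6pc (3.4 ± 0.59, adjusted p = 0.00281) were higher than in the mutant too. On treated wild-type replicate 1, which was high for the lipogenic genes, Cyp4a14, Angptl4, Cpt1a and Pdk4 were the lowest of the group. Cyp4a14 read 2.38 against 2.78 to 5.89, and Angptl4 9.39 against 9.64 to 10.47. Cpt1a read 11.07 against 12.36 to 12.75, and Pdk4 4.67 against 4.83 to 6.36. With 3 of the 4 Cyp4a14 values under 4, its rank lay at background, and Angptl4 and Pdk4 were close to the next array. The other 3 fasting genes did not follow on that array, where Igfbp1 (12.86) and Pck1 (13.2) were the highest of the group and G6pc (9.16) lay within the range of the others (7.49 to 9.51). The part of feeding state in these results was not tested.

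**Figure D4:**
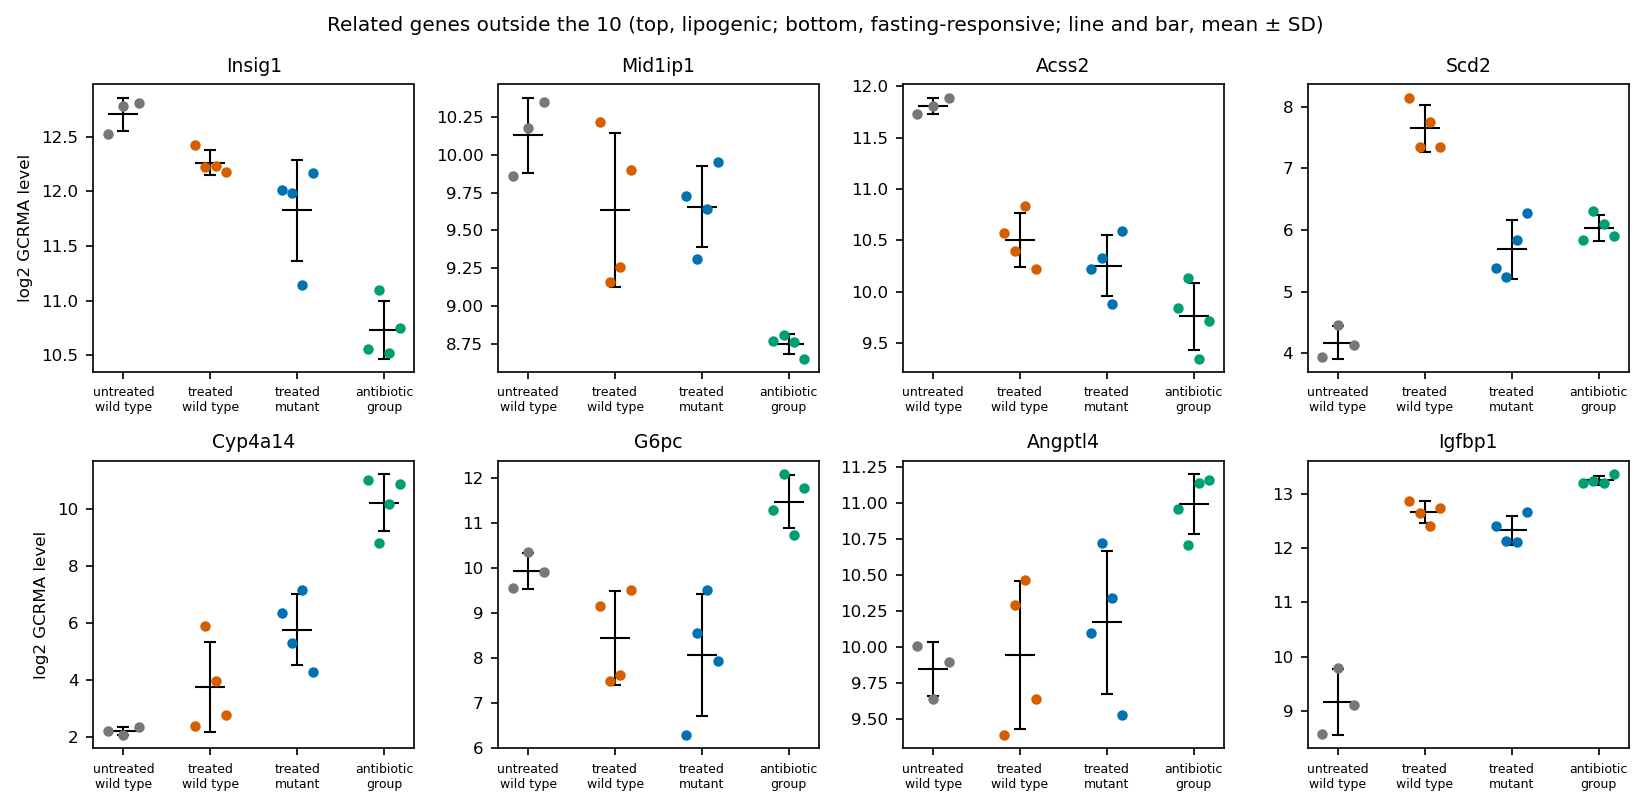
Log2 GCRMA level on each array of 4 lipogenic genes outside the 10 (top) and 4 fasting-responsive genes (bottom), each panel with its own axis range; long lines are means and bars ± SD. In the antibiotic group Insig1 (10.52 to 11.1) and Mid1ip1 (8.65 to 8.81) lie below all other arrays, and Cyp4a14 (8.81 to 11.02) and G6pc (10.74 to 12.09) above them.

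Circadian clock genes set the daily rhythm of lipogenesis. Of 11 kept, 1 rose with treatment (Clock, 1.35 ± 0.14, adjusted p = 1.29e-06) and 6 fell (among them Per3, -1.56 ± 0.29, adjusted p = 0.000357, and Cry2, -1.35 ± 0.16, adjusted p = 5.33e-06), with a median of -0.67 against 0.1. The share called in either direction was close to that of all lead probe sets (61.8%), while 26.3% of all lead probe sets fell. Against treated wild type, 2 rose and 0 fell in the mutant (median 0.04) and 1 rose and 0 fell in the antibiotic group (median -0.11). Of all lead probe sets, 29.8% and 13% changed in these comparisons. The part of the clock or of the hour of death in the treatment differences of the 10 genes was not tested.

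Markers of other cell types were read against the 61.8% (treatment), 29.8% (mutant) and 13% (antibiotic group) of all lead probe sets called in either direction. Of 7 macrophage markers, 6 rose with treatment, 6 fell in the mutant and 5 fell in the antibiotic group, with mean levels per array of 5.19 to 6.72 in untreated, 8.75 to 9.51 in treated wild-type, 5.76 to 6.05 in mutant and 7.27 to 8.29 in antibiotic-group livers. All 5 kept stellate cell and fibroblast markers rose with treatment and fell in the mutant, and 2 fell in the antibiotic group (mean levels 5.48 to 6.27, 8.55 to 8.78, 6.65 to 7.24 and 7.81 to 8.5, Des under 4 on all arrays). All 3 dividing-cell markers rose with treatment and fell in both other treated groups (2.43 to 2.71, 10.33 to 10.99, 8.14 to 8.92 and 7.84 to 10.09). Hepatocyte markers, which stand for the cells that make most hepatic fatty acid, had 0 of 9 higher and 2 lower with treatment (median -0.15) and 0 called in either direction in the mutant or the antibiotic group, at 12.93 to 13.11, 12.55 to 13.14, 12.64 to 12.99 and 13.1 to 13.19. Of the adipocyte markers, Adipoq, Lep and Retn were under 4 on all arrays. Of the 2 kept, Cidec and Fabp4, 1 rose with treatment, 1 fell in the mutant and 0 were called in the antibiotic group. Fabp4 was above background, at 7.74 to 7.94 in untreated and 9.69 to 9.96 in treated wild-type livers. It read 8.91 to 9.5 in mutant and 9.82 to 10.27 in antibiotic-group livers, and Cidec read 2.73 to 6.36 over all arrays. The mean level of 5 was 3.3 to 3.38, 3.6 to 3.93, 3.57 to 3.8 and 3.85 to 4.33. Cholangiocyte markers had 2 of 3 kept higher with treatment, 1 higher in the mutant and 0 called in the antibiotic group, with Krt7 under 4 throughout (2.78 to 2.98, 3.65 to 4.08, 3.84 to 4.47 and 3.74 to 3.95). The part of these cell types in the results on the 10 genes was not tested.

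For the 7 genes whose group means spanned at least 1 log2 unit, the genes outside the 10 with the closest profile were found by the root mean square log2 difference over the 15 arrays after centring each profile on its own mean. Closest to Fasn were Aacs (0.43) and Insig1 (0.46), and closest to Acly were Lss (0.24) and Ap3b1 (0.26). Aacs had group means of 8.26 in untreated, 7.2 in treated wild-type, 6.45 in mutant and 5.44 in antibiotic-group livers. Scd1 was closest to Itih1 (0.16) and Tut7 (0.18), Me1 to Cyp27a1 (0.21) and Fzd7 (0.23), and Elovl6 to Cxcl11 (0.27) and Lonrf1 (0.29). The profiles with the widest spans had more distant neighbours, Hsd3b5 (0.72) and 9130409I23Rik (0.77) for Elovl3 and Upp2 (0.89) and 1810008I18Rik (0.9) for Thrsp.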

How the data were processed

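RNA of 15 mouse liver samples was measured on 1 Affymetrix array each. The values are log2 probe set levels made by the authors with GCRMA, per the submitters' processing notes, which subtracts background by probe sequence and normalizes between arrays; version and settings were not given in the sources used here. GCRMA pulls dim probe sets towards a common low value, so differences near background are compressed or unstable. The deposited log2 table held 45101 probe sets with 0 missing values and 0 unused columns. Arrays give no read depth. On each array 34.6% to 36.7% of probe sets reached 4, and medians of the kept sets were 7.09 to 7.36. A label that describes a liver resection and other ages contradicts the rest of the labels and was not used.

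Probe sets were named through the platform's annotation and a RefSeq gene table (GRCm38.p6), which held 34741 of 34945 gene identifiers; 932 probe sets with several symbols, 9211 unnamed ones and 64 control sets (AFFX) were left out of the tests. Groups came from the sample titles, and replicates are numbered in the order of the labels within each group. The fit used limma (version 3.58.1, under R 4.3.3) with a mean for each of 4 groups over 15 arrays, leaving 11 residual degrees of freedom (prior 3.6, prior SD 0.214), on probe sets at or above 4 on at least 3 arrays (15541 sets, 9482 genes), and p-values were adjusted by Benjamini-Hochberg within each of 6 comparisons, with a threshold of 0.05. The test was checked on simulated data. Python 3.11.15 with pandas 2.3.3 handled the tables and matplotlib 3.10.9 the plots. Alternatives were centring, quantile normalization, a floor at 4, no filter or a filter at 6, 1 probe set per gene or their mean, array weights, fitting the compared groups alone, a trended robust prior, and each array left out.

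The members, the other lists and the tests were chosen with earlier results of these data known. All member probe sets are described. Of each other list, up to 3 called genes with the largest change per main comparison were named, plus the 2 genes of closest profile per member; Acacb and Acss2 with treatment, Mid1ip1 arrays, Dgat1 in the antibiotic group, Insig1, Cyp4a14 and G6pc against the mutant and the genes listed for treated wild-type replicate 1 were added after their values were seen. Upstream sequences were searched on both strands for fixed letters.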

Additional observations from a re-analysis of the deposited data

Results flagged for a closer look

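Of 57 groups of 4 arrays tested for a single distant array (Dixon's criterion at 95%, which flags about 1 in 20 groups by chance), 3 stood out. That is about as many as this rate gives. All 3 were on treated wild-type replicate 1, and the Acly flags came from probe sets of the same gene. Thrsp (1424737_at) read 12.31 there and 10.78 to 10.98 on the other 3 arrays, a gap of 0.872 of the group's range. Acly read 9.02 in 1425326_at against 7.11 to 7.4 (0.85 of the range) and 11.86 in 1451666_at against 11.1 to 11.18 (0.898). The Acly lead set, 12.85 against 12.24 to 12.45, and the Fasn set, 11.15 against 9.43 to 9.78, were high on the same array without passing the criterion.

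The mutant and the antibiotic group, given the same injections, differed by the test of the difference itself in 3 probe sets of the 10 genes. Fasn (1423828_at) was lower in the antibiotic group by a log2 difference of -1.18, Elovl3 (1420722_at) by -2.22 and Me1 (1416632_at) by -0.5. The other 16 kept probe sets did not pass the test. Among them, Scd1 1415965_at (-0.62 ± 0.19, adjusted p = 0.0502) and Me1 1430307_a_at (-0.46 ± 0.14, adjusted p = 0.0539) had antibiotic arrays below all mutant arrays. Arrays of these groups did not overlap for 2260 of all 15541 kept probe sets.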

How the results depend on the processing

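No value of the 10 genes changed sign under any alternative where it was called: of 1050 values, 980 kept their side of the threshold, 17 gained a call, 53 lost it and 0 reversed. The changed probe sets numbered 9310 with treatment, 4443 in the mutant and 1915 in the antibiotic group against treated wild type, 7933 (mutant) and 8705 (antibiotic group) against untreated, and 1626 between the antibiotic group and the mutant. With 1 probe set per gene they were 5938 (treatment), 2917 (mutant), 5136 and 5577 (mutant and antibiotic group against untreated), and with a gene's probe sets averaged 5947, 2948, 5181 and 5663, over 9482 genes. With only the groups compared in the fit, the antibiotic group gave 1259 and its comparison with the mutant 855, with 1 of the 10 genes lower in the latter. With no filter, 1 of the 10 was lower in the mutant against treated wild type and 1 in the antibiotic group against the mutant; the cause was not tested beyond the larger number of features.

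On leaving out 1 array at a time, the genes of the 10 that fell ranged from 4 to 9 with treatment, 0 to 2 in the mutant, 2 to 4 in the antibiotic group, 8 to 8 and 9 to 10 for these against untreated, and 0 to 3 for the antibiotic group against the mutant, with 0 higher each time. The probe sets called ranged from 8301 to 9083, 3341 to 4476, 1149 to 2380, 6713 to 7610, 7630 to 8554 and 979 to 1969. The share of all lead probe sets that fell was not computed for these fits, so the ranges of the 10 genes have no such background. The antibiotic count was lowest without treated wild-type replicate 4 (1149) or antibiotic replicate 1 (1160), and the comparison with the mutant without mutant replicates 1 (982) or 2 (1028) or antibiotic replicate 3 (979). No paired analysis was possible because array numbers run on from group to group in the labels, so that no replicate number is shared. Probe sets near a log2 value of 4 (Thrsp 1444166_at, Acly 1439445_x_at) limit what could be measured below it.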
